A study of Mus musculus with 2 samples.

Results

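In cells sorted with antibodies to CD11b and CD11c from colorectal polyps, integrin transcripts differed between the classes named from marker genes. Among these named classes, the transcript of CD11b (*Itgam*) was highest in neutrophil-like and monocyte-like cells. That of CD11c (*Itgax*) was highest in neutrophil-like, macrophage-like and transitional-like cells. That of CD103 (*Itgae*) was highest in cDC1-like cells and in a mast-cell-like cluster of only 21 cells. The genes described are 10 integrins taken by name, *Itgam*, *Itgax*, *Itgae*, *Itgb2*, *Itgal*, *Itga4*, *Itgb7*, *Itgb1*, *Itgav* and *Itgb5*, and all 10 were among the 32285 genes of the matrices. The cells came from WT mice and from mice labelled KO, which lack *Clec7a*, the gene of the β-glucan receptor Dectin-1. All mice were C57BL6/J, 26 weeks old by the labels, and had received the carcinogen azoxymethane (AOM) and 3 courses of dextran sodium sulfate (DSS), a scheme named AOM-3DSS. One pool of 5 WT mice and one of 4 KO mice gave 1 library each, and no map from cells to mice was used, so the genotypes cannot be told apart from the pools or from the library preparations and no test was possible. The deletion is not restricted to a cell type, and *Clec7a* itself was not analysed here.

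Integrins are adhesion receptors made of an α and a β chain, and the pair decides which ligand is bound. The β2 chain (*Itgb2*) pairs with αL (*Itgal*) as LFA-1, with αM (*Itgam*) as the complement receptor Mac-1, and with αX (*Itgax*), and these receptors hold leukocytes to ICAM molecules and to complement-coated particles. The β7 chain (*Itgb7*) pairs with αE (*Itgae*) to bind E-cadherin on epithelium and with α4 (*Itga4*) to bind the gut vessel addressin, α4 also pairs with β1 (*Itgb1*), and αV (*Itgav*) with β5 (*Itgb5*) binds vitronectin and apoptotic cells.

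The sort genes are neighbours. On GRCm38 (GENCODE M21), *Itgam* (ENSMUSG00000030786) lies on chromosome 7 from 128062640 to 128118491 and *Itgax* (ENSMUSG00000030789) follows on the same strand from 128129547 to 128150657, with *Itgal* upstream from 127296260 to 127335138. *Itgae* lies on chromosome 11 from 73090583 to 73147446, *Itgb2* on chromosome 10 from 77530252 to 77565708, *Itgb7* on chromosome 15 from 102215995 to 102231944, *Itgb1* on chromosome 8 from 128685654 to 128733200 and *Itgb5* on chromosome 16 from 33829665 to 33949338. *Itga4* and *Itgav* lie on chromosome 2, from 79255426 to 79333123 and from 83724397 to 83806916. *Haspin* lies within *Itgae*, and the end of *Cerkl* overlaps *Itga4*, both on the opposite strand. *Gm13684* and a *Dnmt3l* pseudogene overlap *Itgav* in the same way, and the gene model *Gm49368*, which is not in the feature list, covers most of *Itgam* on its own strand. Whether the counting used strand is not given in the sources used here, so reads of *Itgae*, *Itga4* and *Itgav* could include some from these overlaps.

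The promoters of both sort genes are shown, and any link to the orders of their transcripts across the classes below was not tested. Each sequence is 5′ to 3′ on the plus strand, from RefSeq on GRCm38.p6, and covers 250 bases before and 50 bases from the start site. Capitals mark GAGGAA or its reverse complement TTCCTC, a purine-rich core of sites of the myeloid factor PU.1, wherever it occurs on either strand.
Itgam, chr7:128062390-128062689: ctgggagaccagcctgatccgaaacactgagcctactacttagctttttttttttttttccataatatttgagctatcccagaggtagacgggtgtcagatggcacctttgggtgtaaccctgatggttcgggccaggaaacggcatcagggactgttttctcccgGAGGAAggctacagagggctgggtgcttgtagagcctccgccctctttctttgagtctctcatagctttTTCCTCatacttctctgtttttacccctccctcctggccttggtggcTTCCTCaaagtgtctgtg
Itgax, chr7:128129300-128129599: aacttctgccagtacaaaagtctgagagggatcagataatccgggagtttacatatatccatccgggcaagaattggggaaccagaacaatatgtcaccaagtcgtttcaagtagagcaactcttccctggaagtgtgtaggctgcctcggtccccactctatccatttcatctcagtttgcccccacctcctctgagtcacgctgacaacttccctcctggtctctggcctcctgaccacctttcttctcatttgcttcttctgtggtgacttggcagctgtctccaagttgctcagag
The *Itgam* window held 3 matches, 84 and 15 bases before the start site and 32 bases after it, and the *Itgax* window held 0. At least 1 match was found in 28.3% of 32851 promoters of this length and at least 2 in 4.82%. A match is only a run of letters and does not show binding. Other forms of PU.1 sites were not searched for, so 0 matches does not show that the *Itgax* window lacks such sites.

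The WT library held 3467 barcodes and 15869215 UMIs (unique molecular identifiers, 1 for each captured transcript copy), and the KO library 3080 barcodes and 11808230 UMIs. After the filter on cells 2696 WT and 1999 KO cells remained, with medians of 3412.5 and 2671 UMIs. Before the filter 17 barcodes occurred in both libraries, and 10 of these were kept in the WT and 10 in the KO library. The cells fell into 15 clusters drawn without the integrins, and classes were named from marker genes. Neutrophil-like cells were 678 in the WT and 404 in the KO library, monocyte-like cells 320 and 231, transitional-like cells (with *Ccl24*, *Arg1* and *Mmp19*, markers of a monocyte to macrophage transition) 409 and 266, and macrophage-like cells 532 and 293. There were 84 and 158 cDC1-like cells, marked by *Xcr1* and *Clec9a*, and 275 and 407 mature DC-like cells, marked by *Fscn1*. T-cell-like cells were 67 and 121, and all 10 T cell markers were found in them. Cluster 1, led by *Ngp* and *Retnlg*, held 498 of the WT neutrophil-like cells, whereas cluster 4, with *Csf3r* and a median of only 977 UMIs, held 316 of the KO ones. B- or plasma-cell-like, mast-cell-like and epithelial-like clusters held at most 21 cells of a library, a cluster of 333 cells carried markers of neutrophils and monocytes together, and a proliferating cluster of 35 cells stayed unnamed. Levels are UMIs of a gene per 1000000 UMIs of the same cells (CPM), with exact Poisson 95% intervals in brackets, which cover counting error only, as do all intervals below.

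*Itgam* fell from neutrophil-like over monocyte-like and transitional-like to macrophage-like cells. Its level in neutrophil-like cells was 827 (785 to 871) CPM among WT and 861 (780.3 to 948) CPM among KO cells. In monocyte-like cells it was 667 (616 to 722) and 496 (440.0 to 558) CPM, in the order WT and KO, in transitional-like cells 433 (404 to 465) and 416 (377 to 458) CPM, and in macrophage-like cells 345 (328 to 364) and 328 (304 to 355) CPM. Each of these classes lay above the next beyond counting error in both libraries. The smallest step was 0.26 (0.032 to 0.48) on the log2 scale, from monocyte-like to transitional-like cells of the KO library. Below them, mature DC-like cells had 53.2 (41.0 to 67.8) and 26.9 (19.8 to 35.8) CPM and cDC1-like cells 17.8 (8.89 to 31.9) and 9.28 (4.45 to 17.1) CPM, the latter from 11 and 10 UMIs in all. Of the clusters in the mature DC-like class, cluster 3 had 70.2 and 43.9 CPM, and cluster 10 had 13.6 and 2.77 CPM from 5 and 2 UMIs. T-cell-like cells, at 97.1 (56.6 to 155) and 63.2 (35.4 to 104) CPM, lay above mature DC-like cells by 0.87 (0.0047 to 1.66) and 1.23 (0.29 to 2.095) on the log2 scale. Epithelial-like and mast-cell-like cells held at most 3 *Itgam* UMIs in a library, and B- or plasma-cell-like cells 8 and 4. The latter are 198 and 85.7 CPM, which did not differ from T-cell-like cells beyond counting error in either library. The cluster with neutrophil and monocyte markers together, not placed in this order, had 690 and 569 CPM.

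*Itgax* followed another order, in which macrophage-like cells stood near the top and monocyte-like cells near the bottom. Macrophage-like cells had 769.5 (743 to 796) and 733 (695 to 772) CPM and transitional-like cells 665 (628 to 703) and 719.9 (669 to 774) CPM. The libraries differed in the top class. In neutrophil-like cells *Itgax* reached 709 (670.4 to 749.8) CPM among WT and 1309 (1208 to 1415) CPM among KO cells, so that in the WT library macrophage-like cells lay above neutrophil-like cells by 0.12 (0.023 to 0.21) and in the KO library below them, the log2 ratio of neutrophil-like to macrophage-like cells there being 0.84 (0.70 to 0.97). The cDC1-like cells, in which CD11c is a usual marker, had 450.2 (399 to 506) and 394 (357 to 433) CPM, well above mature DC-like cells with 236 (210.0 to 265) and 229.7 (208 to 253) CPM. Monocyte-like cells had 242 (212 to 276) and 163 (131 to 200.0) CPM. They did not differ from mature DC-like cells beyond counting error in the WT library and lay below them in the KO library. T-cell-like cells were lowest of these classes, with 148 (97.0 to 218) and 122 (81.8 to 175) CPM, and did not differ beyond counting error from monocyte-like cells of the KO library. Mast-cell-like cells, 17 and 13 *Itgax* UMIs in 16 and 5 cells, and epithelial-like cells, 6 and 0 UMIs, were too few to place. Also outside this order, the cluster with neutrophil and monocyte markers had 490 and 575 CPM and the proliferating unnamed cluster 703 and 698 CPM.

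**Figure D1:**
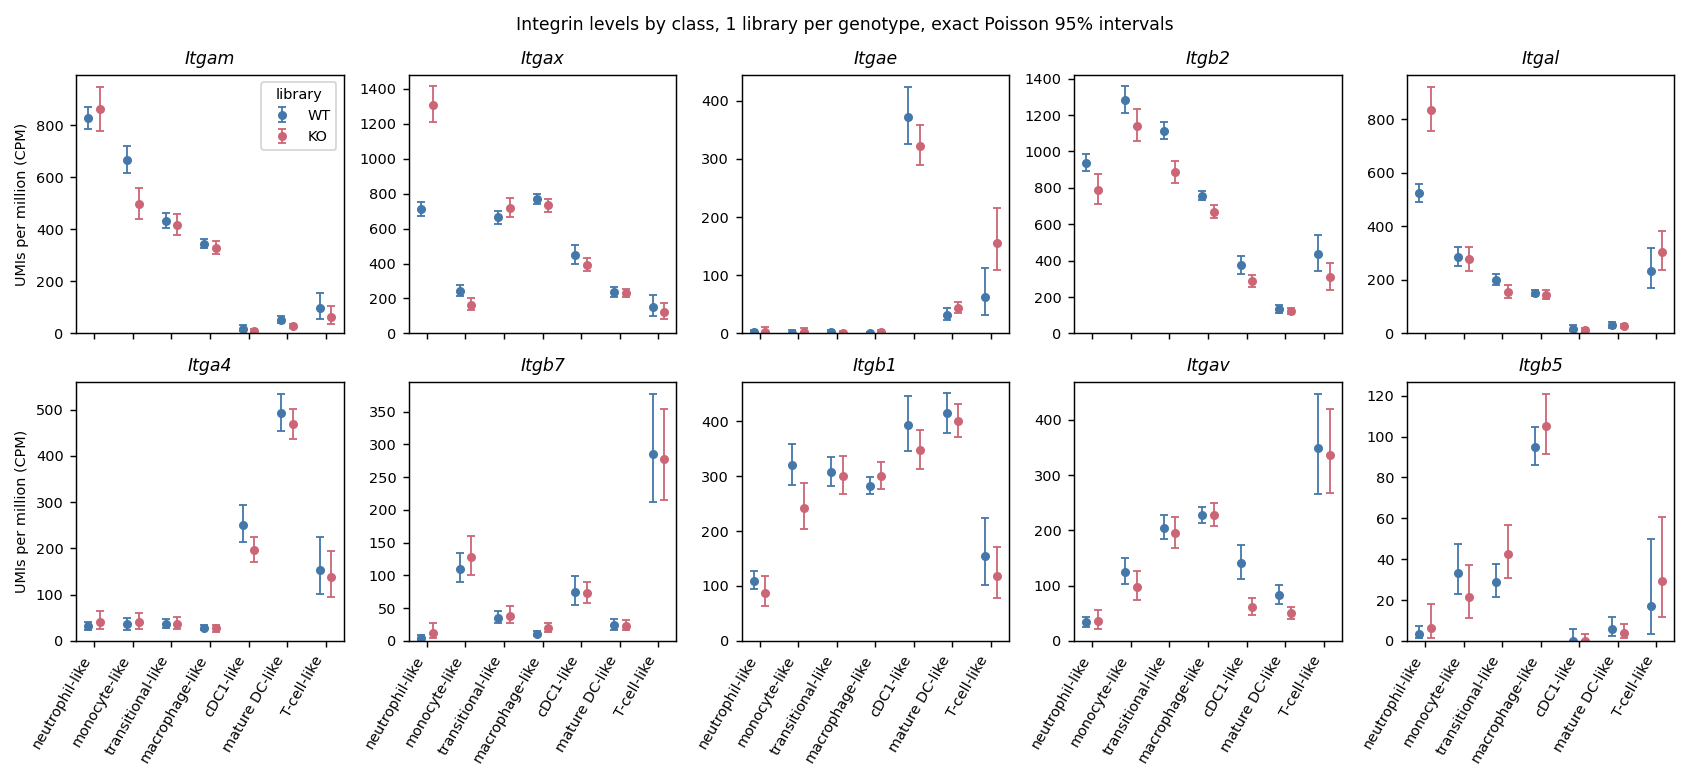
Level of each integrin (y axis, CPM, from 0) in 7 classes (x axis), with a blue point for the WT and a red point for the KO library and bars for exact Poisson 95% intervals. *Itgam* and *Itgal* are high in neutrophil-like cells and near 0 in cDC1-like cells, *Itgae* is highest in cDC1-like cells, and *Itgax* in neutrophil-like cells is 1309 CPM in the KO against 709 CPM in the WT library.

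Detection was compared after each cell was thinned at random to 1000 UMIs, since depth differs between classes. This left out 6.90% of the WT and 15.4% of the KO cells as too shallow, among them 186 of the 404 KO and 74 of the 678 WT neutrophil-like cells. An *Itgam* UMI was found in 50.5% (46.4 to 54.6) of WT and 55.5% (48.6 to 62.2) of KO cells of the neutrophil-like class, with exact binomial 95% intervals. The shares were 40.3% (34.7 to 46.2) of WT and 36.1% (29.5 to 43.0) of KO cells among monocyte-like, 34.4% (29.7 to 39.4) of WT and 32.3% (26.6 to 38.4) of KO cells among transitional-like and 24.9% (21.2 to 28.9) of WT and 24.5% (19.5 to 29.98) of KO cells among macrophage-like cells. In mature DC-like cells they were 6.02% (3.41 to 9.74) of WT and 1.84% (0.742 to 3.75) of KO cells, and in cDC1-like cells only 1 of 84 WT and 1 of 152 KO cells held an *Itgam* UMI. Over the alternatives of processing and depth the mature DC-like shares ran from 0.633% to 14.2% of WT and from 0.435% to 7.37% of KO cells. No *Itgam* UMI was found in the 10 WT and 7 KO epithelial-like cells deep enough to be thinned, so a background share could not be set from that class beyond an upper limit of 30% and 42.9%. The cDC1-like class gives the lowest measured share, from median depths of 6722 and 5824.5 UMIs before thinning.

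*Itgax* was found in 46.4% (42.3 to 50.4) of WT and 70.6% (64.1 to 76.6) of KO cells of the neutrophil-like class and in 49.6% (45.2 to 54.1) of WT and 53.3% (47.2 to 59.3) of KO cells of the macrophage-like class. Over the alternatives of processing and depth the neutrophil-like shares ran from 42.2% to 72.3% of WT and from 49.0% to 83.3% of KO cells. Those of mature DC-like cells ran from 6.96% to 38.2% of WT and from 6.63% to 34.2% of KO cells. For transitional-like cells the shares were 46.4% (41.4 to 51.5) of WT and 42.8% (36.7 to 49.1) of KO cells, for cDC1-like cells 32.1% (22.4 to 43.2) of WT and 31.6% (24.3 to 39.6) of KO cells, for mature DC-like cells 18.5% (13.9 to 23.9) of WT and 15.2% (11.8 to 19.2) of KO cells and for monocyte-like cells 18.0% (13.8 to 22.8) of WT and 11.1% (7.14 to 16.1) of KO cells. Without thinning, 82.1% of the WT and 76.6% of the KO cDC1-like cells held an *Itgax* UMI, and 8.33% and 6.33% an *Itgam* UMI. Unthinned neutrophil-like cells had medians of 2508.5 (WT) and 1051 (KO) UMIs. Of these cells 14.6% (WT) and 30.2% (KO) held *Itgax* without *Itgam*, and 57.7% and 40.8% held both.

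**Figure D2:**
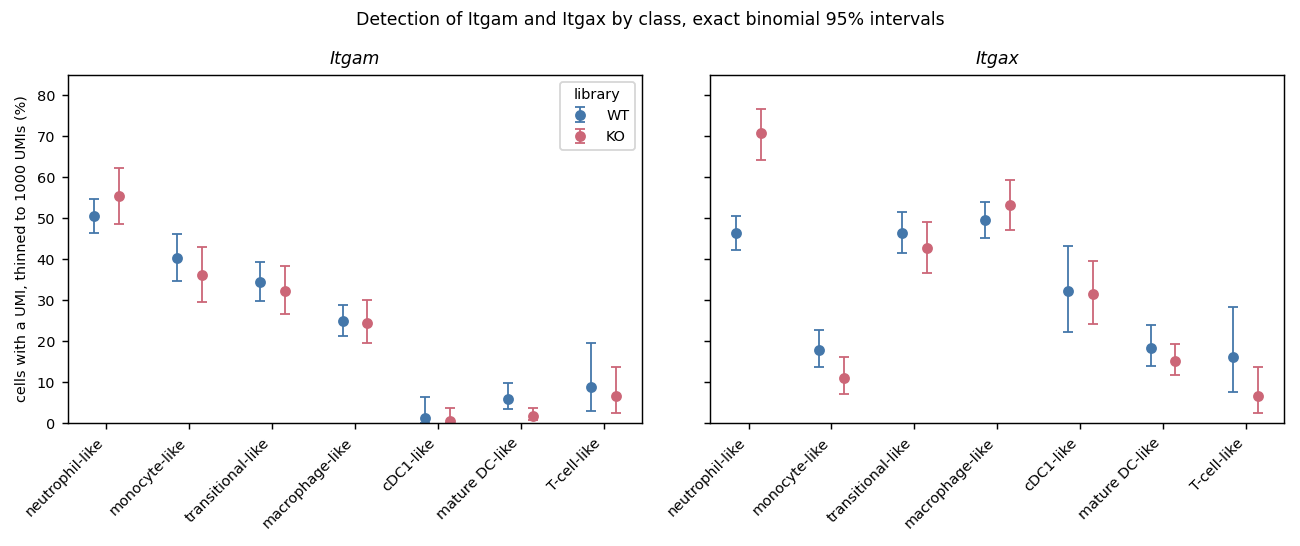
Share of cells with at least 1 UMI of *Itgam* (left) or *Itgax* (right) after thinning to 1000 UMIs (y axis, percent) in 7 classes (x axis), blue for the WT and red for the KO library, with exact binomial 95% intervals. The *Itgam* share falls from neutrophil-like to macrophage-like cells. Its intervals overlap between monocyte-like and transitional-like cells of both libraries and between transitional-like and macrophage-like KO cells. *Itgax* is found in 70.6% of the 218 KO and 46.4% of the 604 WT neutrophil-like cells deep enough to be thinned.

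At this depth many cells of the sort showed the transcript of neither sort marker. They made up 41.99% of the WT and 53.4% of the KO cells. The share with neither was lowest in neutrophil-like cells, 28.0% and 10.6%, and reached 66.7% and 67.8% in cDC1-like, 76.3% and 83.2% in mature DC-like and 78.6% and 89.0% in T-cell-like cells. The classes differed in which marker was seen alone. Monocyte-like cells showed *Itgam* alone in 33.2% and 30.8% and *Itgax* alone in 10.8% and 5.77%. Macrophage-like cells showed the reverse, *Itgam* alone in 13.2% and 11.3% and *Itgax* alone in 37.9% and 40.1%. Both transcripts together were found in 24.8% and 36.7% of the neutrophil-like cells and in 0 of 84 and 0 of 152 cDC1-like cells. At the thinned depth this allows shares of up to 3.57% and 1.97% of cDC1-like cells with both. Without thinning 7 of 84 WT and 9 of 158 KO cDC1-like cells held both. A missing UMI does not show that the protein was absent from the surface.

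**Figure D3:**
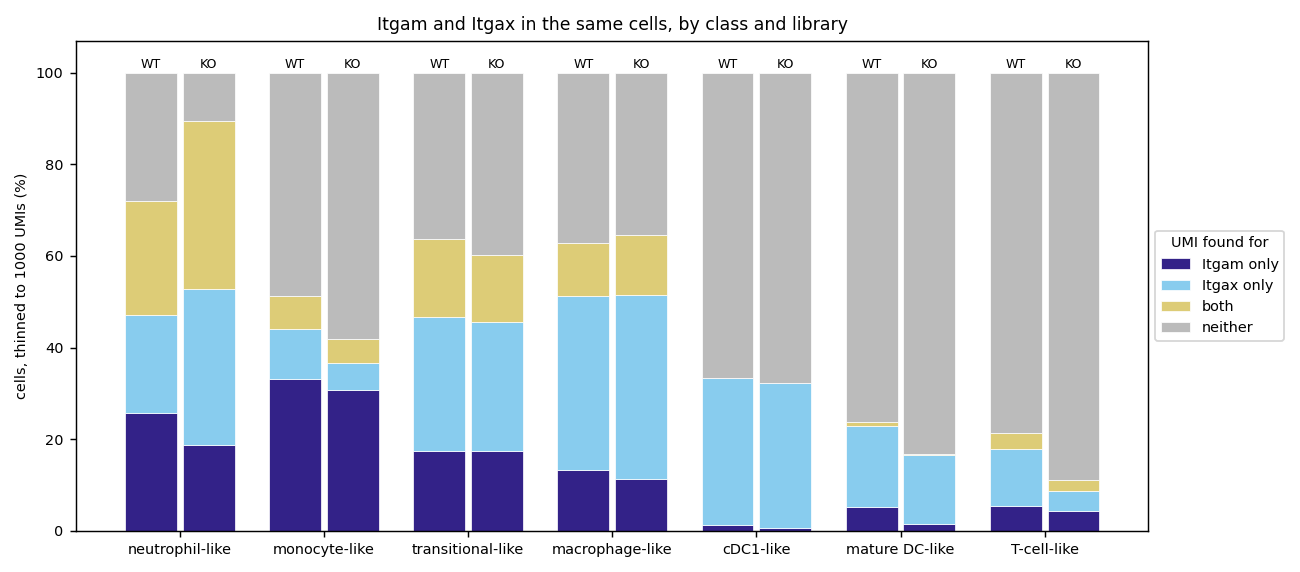
Share of cells (y axis, percent, thinned to 1000 UMIs) with a UMI of *Itgam* only, *Itgax* only, both or neither, stacked for the WT and KO library of 7 classes (x axis). Cells with neither marker make up 78.6% of WT and 89.0% of KO T-cell-like cells and 28.0% and 10.6% of neutrophil-like cells.

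The sort also let through 67 WT and 121 KO cells of the T-cell-like class, 2.49% (1.93 to 3.15) and 6.05% (5.05 to 7.19) of the kept cells. Their leading genes included *Cd3g*, *Cd3d* and *Trbc1*, parts of the T cell receptor complex, *Trdc* of the γδ receptor and *Foxp3*, the factor of regulatory T cells. Few of them held a sort marker transcript. Without thinning an *Itgam* UMI was found in 9 of 67 WT and 12 of 121 KO cells and an *Itgax* UMI in 10 of 67 and 19 of 121, at median depths of 2058 and 1552 UMIs. After thinning the shares were 8.93% (2.96 to 19.6) of WT and 6.59% (2.46 to 13.8) of KO cells for *Itgam* and 16.1% (7.62 to 28.3) of WT and 6.59% (2.46 to 13.8) of KO cells for *Itgax*, and the intervals of the libraries overlapped. The epithelial-like class, which should lack *Itgax*, held it in 2 of 10 WT and 0 of 7 KO thinned cells, at median depths of 1724 and 5792 UMIs before thinning. These are too few cells to set a background share, and the part of free RNA in the T-cell-like shares was not tested. In most of these cells the marker was a single copy in the KO library, 10 of 12 for *Itgam* and 14 of 19 for *Itgax*, whereas 4 of 9 and 2 of 10 were single copies in the WT library.

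Genes of the neutrophil and monocyte lists were found beside *Itgam* in these cells. The *Itgam* level of T-cell-like cells was 11.7% (6.82 to 18.9) of the neutrophil-like level for WT and 7.34% (4.07 to 12.2) for KO cells. The summed level of the 13 neutrophil markers was 12.3% and 6.04% of its neutrophil-like level, with 12 of the 13 above 0 in each library (*Ly6g* was at 0 in the WT and *Ngp* in the KO library). The same sum was 12.5% and 11.5% in transitional-like, 4.95% and 4.88% in macrophage-like and 4.55% and 5.57% in cDC1-like cells. It was 14.7% and 3.61% in B- or plasma-cell-like cells, so it is not particular to T-cell-like cells. The single neutrophil genes that follow were picked after the values were seen, and the rest of the list was not set beside *Itgam* gene by gene. Of these in the WT library, *S100a8* stood at 11.7% (10.2 to 13.2), *S100a9* at 12.3% (11.1 to 13.6), *Csf3r*, the receptor of the granulocyte growth factor, at 13.2% (9.20 to 18.3), *Retnlg* at 9.26% (7.47 to 11.4) and *G0s2* at 11.001% (6.14 to 18.2). In the KO library they were spread wider, at 3.89% (3.01 to 4.94), 5.66% (4.83 to 6.59), 7.36% (5.23 to 10.1), 2.34% (1.31 to 3.88) and 13.2% (7.85 to 21.0) in the same order. The 8 genes of the monocyte list summed to 17.7% and 16.0% of their monocyte-like level, with 6 and 4 of the 8 above 0. *F13a1* and *Fcnb* were at 0 in both libraries, and *Chil3* and *Vcan* also in the KO library. In mast-cell-like cells the same sum reached 50.4% (WT) and 49.4% (KO), the latter from *Plac8* alone, so it is not particular to monocytes. *Itgam* in T-cell-like cells stood at 14.6% (8.42 to 23.5) and 12.7% (7.03 to 21.4) of its monocyte-like level. The WT T-cell-like cells with an *Itgam* UMI held a median of 68 neutrophil marker UMIs, against 2 in those without, at median depths of 2375 and 2004.5 UMIs. In the KO library the medians were 6.5 and 0. All 9 WT and all 12 KO cells with an *Itgam* UMI held at least 1 neutrophil marker UMI, as did 42 of 58 and 49 of 109 cells without one. The part of neutrophil or monocyte RNA in the *Itgam* level was not tested.

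*Itgax* in T-cell-like cells stood at 20.9% (13.6 to 30.8) and 9.34% (6.202 to 13.5) of the neutrophil-like level and at 19.3% (12.6 to 28.3) and 16.7% (11.1 to 24.1) of the macrophage-like level. It stood at 33.0% (21.2 to 49.4) and 31.1% (20.5 to 45.3) of the cDC1-like level. Of the mature DC-like level it was 62.8% (40.3 to 93.9) and 53.2% (35.2 to 77.6). Macrophage markers were far lower in T-cell-like cells. The 11 genes of that list summed to 1.84% and 1.98% of their macrophage-like level, with 5 of 11 and 10 of 11 above 0, and *Mrc1* at 0 in both libraries. Of the cDC1 list, 2 and 3 of 8 genes were above 0, with *Clec9a* and *Cadm1*, both found in cDC1-like cells of each library, among those at 0 in both. The 9 mature DC genes summed to 10.0% and 10.6%, with *Fscn1*, *Il4i1* and *Nudt17* at 0 in both libraries. T-cell-like cells with an *Itgax* UMI also held more neutrophil marker UMIs, medians of 33 against 1 in the WT and 7 against 0 in the KO library. Their part in the *Itgax* level was not tested. Only 4 WT and 7 KO T-cell-like cells held none of the 65 myeloid marker genes. Among them *Itgam* was found in 0 cells and *Itgax* in 1 KO cell, which allows up to 27.3% of the 11 cells with an *Itgam* UMI. The 65 genes pool the neutrophil, monocyte, transitional, macrophage and dendritic lists, with *Ccr7*, *Cd7* and *Ccr9* among them. Which of the 65 genes the T-cell-like cells express themselves was not tested.

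Within the T-cell-like class, cells with a *Foxp3* UMI held an *Itgam* UMI in 4 of 28 WT and 6 of 47 KO cells and an *Itgax* UMI in 3 of 28 and 11 of 47. Cells with a UMI of *Trdc* or *Tcrg-C1*, constant segments of the γδ receptor, held *Itgam* in 2 of 16 and 1 of 29 and *Itgax* in 0 of 16 and 2 of 29. Of the cells with a *Cd4* UMI, 0 of 25 WT and 4 of 42 KO cells held *Itgam*. Integrins that T cells are known for were also found. An *Itgb7* UMI was found in 26 of 67 and 36 of 121 T-cell-like cells, an *Itgal* UMI in 25 of 67 and 37 of 121, and an *Itgav* UMI in 33 of 67 and 48 of 121. *Itgae* went from 8 of 67 cells and 62.8 (31.4 to 112) CPM to 25 of 121 cells and 156 (109.8 to 215) CPM in the KO library, with 1.31 (0.31 to 2.43) as the log2 ratio, from 11 and 37 UMIs.

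The β2 chain *Itgb2* was found in every class of the 7, highest in monocyte-like cells with 1285 (1213 to 1359.7) and 1142 (1055 to 1233) CPM and next in transitional-like cells with 1115 (1067 to 1164) and 886 (829 to 946) CPM. Neutrophil-like cells had 938 (893 to 985) and 791 (713 to 874) CPM and macrophage-like cells 758 (732 to 784) and 669 (634 to 707) CPM. Lymphoid and dendritic classes had less, 434 (342 to 543) and 308 (241 to 387) CPM in T-cell-like, 374 (327 to 426) and 288 (257 to 322) CPM in cDC1-like and 133 (113 to 155) and 121 (105 to 138) CPM in mature DC-like cells. *Itgal*, its α partner in LFA-1, ran with *Itgam* in the myeloid classes. It was 525 (492 to 559.8) and 836 (757 to 922) CPM in neutrophil-like, 287 (253 to 323) and 277 (235 to 324) CPM in monocyte-like, 199 (179 to 221) and 155 (132 to 182) CPM in transitional-like and 152 (140.1 to 164) and 145 (129 to 163) CPM in macrophage-like cells. Unlike *Itgam* it was also clearly found in T-cell-like cells, at 234 (168 to 318) and 303 (237 to 382) CPM, and like *Itgam* it was low in mature DC-like cells, at 30.3 (21.3 to 41.7) and 27.5 (20.3 to 36.5) CPM, and in cDC1-like cells, at 16.2 (7.77 to 29.8) and 12.99 (7.10 to 21.8) CPM.

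*Itgae*, the α chain of CD103, marked the cDC1-like class, at 373 (326 to 424) and 323 (290.0 to 359) CPM. Mast-cell-like cells had 322 (210.1 to 471) and 441 (212 to 812) CPM from 26 and 10 UMIs and did not differ from cDC1-like cells beyond counting error in either library. These UMIs came from only 16 WT and 5 KO cells, which limits the placing of this class. Mature DC-like cells had 31.9 (22.7 to 43.6) and 43.5 (34.3 to 54.5) CPM. In neutrophil-like, monocyte-like, transitional-like and macrophage-like cells at most 5 UMIs were found per library and class, so the level in neutrophil-like cells, 2.85 (0.924 to 6.64) and 2.08 (0.0527 to 11.6) CPM, can serve as background. Its partner *Itgb7* was highest in T-cell-like cells, at 286 (212 to 376) and 278 (215 to 354) CPM, and lower in monocyte-like cells, at 109.9 (89.6 to 133) and 128 (99.9 to 161) CPM, and cDC1-like cells, at 74.5 (54.5 to 99.4) and 72.4 (57.2 to 90.4) CPM. Monocyte-like cells thus held *Itgb7* without *Itgae*, of which they had 1 UMI in each library. Neutrophil-like cells held 7 and 6 *Itgb7* UMIs.

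The other α partner of *Itgb7*, *Itga4*, was highest in mature DC-like cells, at 493 (455 to 534) and 469 (437 to 502) CPM, and next in cDC1-like cells, at 251 (213 to 294) and 196 (170.3 to 224) CPM. Within the mature DC-like class, cluster 10, led by *Il12b*, had 642 and 557 CPM and cluster 3 429 and 406 CPM. T-cell-like cells had 154 (102 to 224) and 139 (95.7 to 195) CPM. The 4 classes of neutrophils, monocytes, transitional cells and macrophages lay between 26.9 and 41.6 CPM. *Itgb1*, which pairs with α4 and with αV, was broad. It lay between 243 and 415 CPM in the monocyte-like, transitional-like, macrophage-like and dendritic classes, whereas neutrophil-like cells had 109.9 (94.9 to 127) and 87.4 (63.0 to 118) CPM.

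*Itgav* and *Itgb5*, chains of a receptor for vitronectin and apoptotic cells, were both found in macrophage-like cells, at 228 (214 to 243) and 228 (207 to 250.1) CPM for *Itgav* and 95.1 (86.1 to 105) and 105 (91.6 to 121) CPM for *Itgb5*. *Itgb5* was highest there among the 7 classes. In cDC1-like cells 0 *Itgb5* UMIs were found in both libraries, which allows up to 4.86 and 2.78 CPM. T-cell-like cells, which had the highest *Itgav* level at 348 (266 to 448) and 337 (267 to 419.6) CPM, held 3 and 7 *Itgb5* UMIs, that is 17.1 and 29.5 CPM. This was 18.0% (3.70 to 53.0) and 28.0% (11.1 to 58.7) of the macrophage-like level of *Itgb5*. *Itgav* was also found in transitional-like cells, at 205 (185 to 227) and 195 (169 to 224) CPM, and was low in neutrophil-like cells, at 33.6 (25.6 to 43.3) and 35.4 (20.6 to 56.6) CPM.

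Over all kept cells *Itgam* and *Itgb2*, highest in neutrophil-like or monocyte-like cells, were lower in the KO library, and *Itgae* and *Itga4*, highest in dendritic classes among the 7, were higher. The log2 ratio of KO over WT was −0.72 (−0.79 to −0.64) for *Itgam*, −0.56 (−0.61 to −0.51) for *Itgb2*, −0.46 (−0.55 to −0.36) for *Itgal*, −0.25 (−0.36 to −0.14) for *Itgav* and −0.17 (−0.22 to −0.11) for *Itgax*. It was 1.28 (1.07 to 1.49) for *Itgae*, 0.82 (0.70 to 0.94) for *Itga4*, 0.48 (0.28 to 0.69) for *Itgb7* and 0.15 (0.069 to 0.22) for *Itgb1*. Each of these 9 lay beyond counting error, and *Itgb5* at −0.14 (−0.35 to 0.072) did not. Only *Itgae* was past a fold of 1 on the log2 scale, that is 1 of the 10 members, where 4.13% of the 8470 genes tested (those with at least 100 UMIs in both libraries together) were past it in either direction. The median log2 ratio was −0.15 over the members and 0.13 over all genes tested. TMM scaling, which sets the bulk of genes equal, lowered every ratio over all kept cells by 0.17, and *Itgb1* was then −0.019.

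These values held the make-up of the libraries as well as the levels within cells. cDC1-like cells were 3.12% of the WT and 7.90% of the KO cells and mature DC-like cells 10.2% and 20.4%, while neutrophil-like cells were 25.1% and 20.2% and the cluster with neutrophil and monocyte markers 10.1% and 3.00%. With each KO cluster given its weight in the WT library, an alternative chosen after the data were seen, the log2 ratio of *Itgae* was 0.0060 in place of 1.28, that of *Itgam* −0.077 in place of −0.72 and that of *Itgb2* −0.15 in place of −0.56. *Itga4* went from 0.82 to −0.090, *Itgb1* from 0.15 to −0.099, *Itgax* from −0.17 to 0.15, *Itgal* from −0.46 to 0.21, and *Itgb5*, within counting error before, from −0.14 to 0.22, so these 5 changed sign.

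In neutrophil-like cells the chains of the β2 family did not move together. *Itgax* was higher in the KO library, with a log2 ratio of 0.88 (0.74 to 1.02), and so was *Itgal*, with 0.67 (0.50 to 0.84). *Itgam*, with 0.058 (−0.10 to 0.22), did not differ beyond counting error, and their common partner *Itgb2* was lower, with −0.25 (−0.41 to −0.085). None of the 5 members tested was past the fold, where 4.17% of the 2181 genes tested were. The class was held mostly by cluster 1 in the WT and by cluster 4 in the KO library. Within cluster 1, *Itgax* was 664 and 1134 CPM, a log2 ratio of 0.77 (0.54 to 1.00), and *Itgal* differed by 0.54 (0.27 to 0.81). Within the shallow cluster 4, *Itgax* was 999 and 1396 CPM, a log2 ratio of 0.48 (0.25 to 0.72), while *Itgal* differed by 1.26 (0.90 to 1.63) and *Itgam* by 0.39 (0.092 to 0.69). *Itgb2* was 0.049 (−0.20 to 0.29) in cluster 1, within counting error, and −0.41 (−0.69 to −0.14) in cluster 4. With 30 principal components the ratios of the class were 0.40 for *Itgax*, 0.34 for *Itgal* and −0.073 for *Itgb2*, and the last was −0.080 with reciprocal PCA.

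In monocyte-like cells both sort genes were lower in the KO library, *Itgam* with −0.43 (−0.64 to −0.22) and *Itgax* with −0.57 (−0.94 to −0.22), as were *Itgb1* with −0.40 (−0.70 to −0.10) and *Itgb2* with −0.17 (−0.31 to −0.031). None of the 7 members tested was past the fold there, against 1.51% of the 2325 genes tested. The ratio of *Itgax* in this class was −0.26 when cells with 500 to 6000 genes were kept and −0.27 with reciprocal PCA. In transitional-like cells *Itgb2*, with −0.33 (−0.45 to −0.22), and *Itgal*, with −0.36 (−0.64 to −0.085), were lower, none of 8 members was past the fold, and 1.42% of the 3721 genes tested were. *Itgal* was −0.092 there with cells of 500 to 6000 genes and −0.16 with 30 components, neither beyond counting error, and *Itgb2* was −0.16 and −0.11. In macrophage-like cells *Itgb2* was lower, with −0.18 (−0.27 to −0.086) (−0.29 in cluster 5 and −0.092, within counting error, in cluster 6), and none of 8 members was past the fold, against 0.881% of the 5788 genes tested. *Itgb7*, with 46 and 39 UMIs and so under the minimum of 100 UMIs for that count, differed by 0.88 (0.22 to 1.52) in macrophage-like cells. *Itgam* and *Itgax* did not differ beyond counting error between the libraries in transitional-like or macrophage-like cells.

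Both dendritic classes had less *Itgav* in the KO library. In cDC1-like cells *Itgav* was 141 (113 to 174) and 61.3 (47.4 to 77.9) CPM, which gave −1.20 (−1.69 to −0.72) as the log2 ratio, the 1 member of 7 tested that was past the fold, where 1.69% of the 2481 genes tested were. It was −0.70 when cells of up to 10% mitochondrial UMIs were kept. *Itgb2*, with −0.38 (−0.63 to −0.13), and *Itga4*, with −0.36 (−0.66 to −0.050), were also lower in cDC1-like cells, while *Itgae*, with −0.21 (−0.45 to 0.041), and *Itgax*, with −0.19 (−0.42 to 0.029), did not differ beyond counting error. In mature DC-like cells *Itgav* differed by −0.71 (−1.14 to −0.29) and *Itgam* by −0.98 (−1.56 to −0.42), the latter from 65 and 47 UMIs. Within cluster 3 of that class *Itgav* differed by −0.97 (−1.53 to −0.43) and *Itgam* by −0.68 (−1.27 to −0.094). In its cluster 10 *Itgav* was −0.20 (−0.96 to 0.59), within counting error, and *Itgam* had only 5 and 2 UMIs. With up to 10% mitochondrial UMIs *Itgav* was −0.43 in the whole class and no longer beyond counting error. With 500 to 6000 genes *Itgam* was −1.68 in the class. None of 7 members was past the fold in that class, against 0.936% of the 3847 genes tested. In T-cell-like cells *Itgb2* was lower in the KO library, with −0.50 (−0.98 to −0.014), and none of 4 members tested was past the fold, against 1.64% of the 733 genes tested. With a minimum of 20 UMIs it was 1 of 9 members, *Itgae*, against 259 of the 3771 genes tested at that minimum. The T-cell-like ratio of *Itgb2* was −0.41 and within counting error with up to 10% mitochondrial UMIs, while *Itgam* at −0.62 (−1.72 to 0.47) and *Itgax* at −0.28 (−1.10 to 0.54) did not differ beyond counting error.

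**Figure D4:**
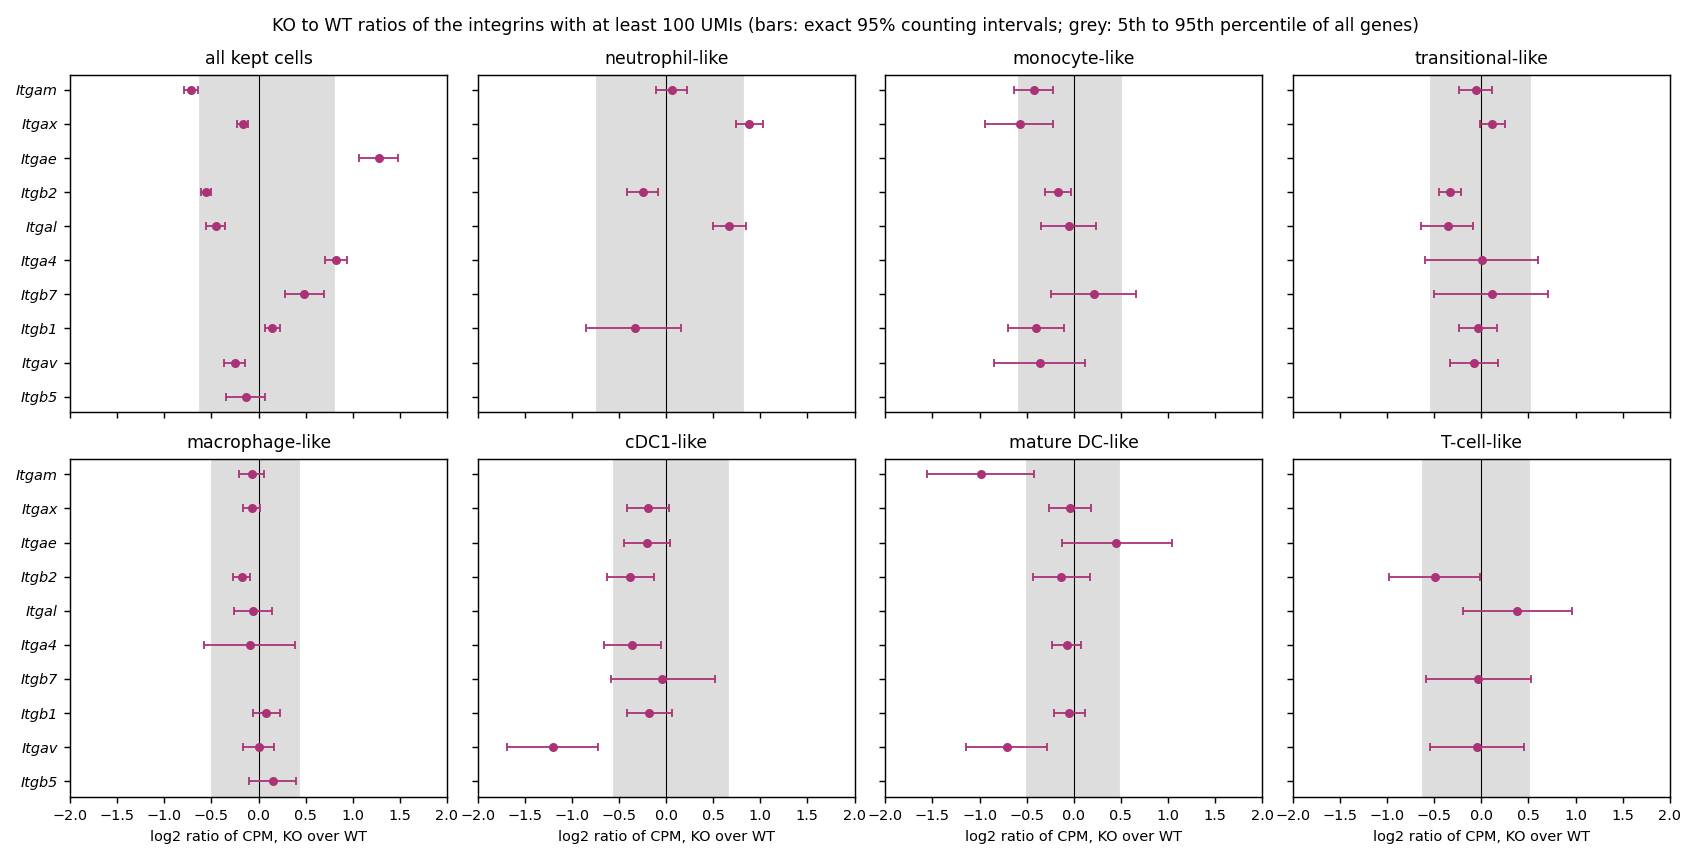
Log2 ratio of the KO over the WT level (x axis) of each integrin (y axis) with at least 100 UMIs, in all kept cells and in 7 classes, with bars for exact 95% counting intervals and grey bands from the 5th to the 95th percentile of all genes tested in that class. *Itgae* stands at 1.28 over all kept cells and at −0.21 within cDC1-like cells, and *Itgax* at 0.88 in neutrophil-like cells.

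For the remaining integrin chains and partners, genes past the fold over all kept cells were counted by list. Each count is to be read beside the 4.13% of all genes tested, and the lists are small. The median log2 ratio was 0.42 over 6 tested α subunits, −0.17 over 8 activators, −0.30 over 9 downstream genes and −0.47 over 10 ligands, beside the median over all genes given above. Of 11 other α subunits 6 had at least 100 UMIs, and 2 were higher in the KO library, beside 4.13% of all genes tested past the fold in either direction. They were *Itga3* at 1.56 and *Itga2b* at 1.30, from 189 and 106 UMIs. Within classes *Itga3* was −0.0067 (−0.60 to 0.61) in cDC1-like and 0.30 (−0.51 to 1.15) in mature DC-like cells, both within counting error, and *Itga2b* was 2.40 (1.07 to 4.09) in cDC1-like cells. Of 4 other β subunits 1, *Itgb3*, had enough UMIs and was not past the fold, and the β2 partner *Itgad* and the β2-like *Itgb2l* had only 28 and 19 UMIs. None of 8 tested activators that act from inside the cell, such as talin (*Tln1*), and none of both inhibitors was past it. Of 9 tested genes that signal downstream 1 was lower, the Src family kinase *Fgr* at −1.19, and of 10 tested ligands 1 was higher, *Cdh1*, the gene of E-cadherin, at 1.06 from 121 UMIs. The ratios of *Fgr* and *Cdh1* over all kept cells also hold the make-up of the libraries, and that part was not tested.

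Over 24 points, the 13 clusters with at least 20 cells in a library, the genes whose log2(CPM + 10) followed *Itgam* most closely among 4656 genes were *Sdcbp* (r = 0.98), *Cebpb* (r = 0.98) and *C5ar1* (r = 0.98). *C5ar1* is the receptor of the complement fragment C5a. For *Itgax* they were *Lpcat2* (r = 0.91), *Cd300a* (r = 0.89) and *Il10ra* (r = 0.88), of which *Il10ra* is the receptor chain of interleukin-10. For *Itgae* they were *Sept6* (r = 0.94), *Tap2* (r = 0.90) and *Adam19* (r = 0.89), of which *Tap2* is a peptide transporter of antigen presentation. These are descriptions, and clusters of the same library share its depth and preparation.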

How the data were processed

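For the WT and KO libraries of CD11b+ and CD11c+ polyp cells, made with the SeekOne MM kit, the deposited values are whole UMI counts of each gene in each barcode, with no normalization by the authors. The submitters' processing notes name Cell Ranger 2.1.1 and mm10, with no role given, and a label names another platform than the kit. The total was 15869215 UMIs in the WT and 11808230 in the KO library. The study's filter was used, 200 to 4000 detected genes and a mitochondrial share of 5% or less. No doublet removal is described and none was made, and Scrublet called only 1 barcode.

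Clusters were drawn with Seurat 5.3.0 under R 4.3.3 from both libraries together (LogNormalize to 10000, 2000 variable features less 20 integrin-related and sex-linked genes, 20 principal components, Louvain resolution 0.8, the smallest with at least 15 clusters). A cluster was named from at least 3 markers of a list that were at least 2-fold over the other cells and found in 20% of its cells. Counts were summed per class and given as CPM with exact Poisson intervals, shares with Clopper-Pearson intervals and log2 ratios with exact conditional intervals, all at 95% and for counting error only. For 0 counts the limit of 3 is given, which is not the upper end of an exact interval. With 1 library per genotype no test was run. A gene was past the fold at an absolute log2 ratio of at least 1 (pseudocount 0.5 UMI) among genes with at least 100 UMIs. Detection used cells thinned to 1000 UMIs with seed 1. Named were the 10 members, genes of the integrin lists past the fold, the 3 genes most correlated with *Itgam*, *Itgax* and *Itgae*, and lineage markers. *S100a8*, *S100a9*, *Csf3r*, *Retnlg* and *G0s2* were set beside *Itgam* in T-cell-like cells after the values were seen. Python 3.11.15, numpy 2.4.6, scipy 1.17.1, pandas 2.3.3 and matplotlib 3.10.9 were used. The ratio was tested on simulated data. The members and lists were chosen with earlier results of these data known.

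Alternatives were up to 10% mitochondrial UMIs, 500 to 6000 detected genes, Scrublet calls removed, all variable features, 10 or 30 components, a resolution higher by 0.4, reciprocal PCA, means over cells, scaling by TMM (edgeR 4.0.16), 20 UMIs as the minimum, cells thinned to 2000 UMIs, not thinned or with seed 2, and T cells chosen by marker UMIs. Those added after the data were seen removed the 5% highest Scrublet scores or shared barcodes, or weighted the KO clusters as in WT. The reference held no protein sequences of the members, and none are shown.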

Additional observations from a re-analysis of the deposited data

Results flagged for a closer look

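*Itgax* and *Itgal* moved in opposite directions between the libraries in different classes, a contrast that was not tested with 1 library per genotype. The log2 ratio of KO over WT of *Itgax* was 0.88 in neutrophil-like and −0.57 in monocyte-like cells. That of *Itgal* was 0.67 in neutrophil-like and −0.36 in transitional-like cells. These values stand in the report with their intervals, and neutrophil-like cells lay mostly in different clusters in the WT and KO libraries.

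The barcodes that the filter on cells removed, 771 in the WT and 1081 in the KO library, entered none of the reported comparisons, though some return in the alternatives with up to 10% mitochondrial UMIs or 500 to 6000 detected genes, and they held both sort genes above the limit that a count of 0 allows. *Itgam* stood at 157.8 and 91.8 CPM in them, from 566 and 390 UMIs, and *Itgax* at 541.8 and 425.3 CPM, from 1943 and 1807 UMIs, in the order WT and KO.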

How the results depend on the processing

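Of 158 recomputed ratios of *Itgam* and *Itgax*, 143 stayed within the counting interval of the reported value. The sign changed in 15, of which 13 started from a reported value within counting error of 0 and 2, *Itgax* over all kept cells, from one beyond it. Over all kept cells the log2 ratio of *Itgam* was −0.88 with TMM scaling, −0.45 as a mean over cells, −0.89 with up to 10% mitochondrial UMIs and −0.077 with KO clusters weighted as in WT. That of *Itgax* was −0.33, 0.044, −0.24 and 0.15 in the same order, so its direction depended on the weight of cells and clusters. As a mean over cells *Itgal* was 0.072, and with KO clusters weighted as in WT *Itgal* was 0.21, *Itga4* −0.090 and *Itgb1* −0.099. *Itgb1* was −0.019 with TMM scaling. With 30 components *Itgam* was −0.16 in neutrophil-like and 0.26 in transitional-like cells and *Itgax* 0.40 in neutrophil-like cells. In mature DC-like cells *Itgam* was −1.68 and *Itgax* 0.28 with 500 to 6000 detected genes, and *Itgax* 0.29 with 10 components. *Itgax* was −0.032 in transitional-like cells with up to 10% mitochondrial UMIs. These alternatives redraw or reweight the same cells, and the cause of each move was not tested. Of 524 recomputed ratios of the other 8 members, 491 stayed within the counting interval. The sign changed in 40, of which 35 started from a value within counting error of 0, and the 5 from one beyond it are those of *Itgal*, *Itga4* and *Itgb1* given above.

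T-cell-like cells with 0 myeloid marker UMIs, and cells with 2 or more T cell marker UMIs and 0 myeloid ones, had *Itgam* and *Itgax* in 0% after thinning in both libraries, from 2 WT and 3 KO cells, so these say little. Without thinning the KO share with *Itgax* was 15.7%. With the 5% highest Scrublet scores removed, an alternative chosen after the data were seen like that of leaving out shared barcodes, the shares of T-cell-like cells were 8.16% and 5.06% for *Itgam* and 10.2% and 3.80% for *Itgax*. Leaving out the shared barcodes moved no recomputed ratio or share outside its interval. Of 312 recomputed shares in the other classes 227 stayed within the interval, and 22 of the others were not thinned and 21 thinned to 2000 UMIs. The rest moved with the clustering or the filter on cells, from 4 with the higher resolution to 8 with reciprocal PCA.

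With a minimum of 20 in place of 100 UMIs the genes past the fold went from 350 of 8470 tested to 903 of 11461 over all kept cells. They went from 91 of 2181 to 553 of 4967 in neutrophil-like, 35 of 2325 to 336 of 5657 in monocyte-like and 53 of 3721 to 374 of 7435 in transitional-like cells. The counts were 51 of 5788 and 326 of 9127 in macrophage-like, 42 of 2481 and 459 of 6152 in cDC1-like, 36 of 3847 and 366 of 7535 in mature DC-like and 12 of 733 and 259 of 3771 in T-cell-like cells. More genes were tested at the lower minimum, and a larger share of them was past the fold in every group. No paired analysis was possible because each genotype has 1 library, and for the same reason none could be left out. The mast-cell-like, epithelial-like and B- or plasma-cell-like classes hold at most 21 cells of a library, which limits their values.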
